A study of Mus musculus with 27 samples.

Results

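The mitochondrial ribosomal proteins are described here in cancer-associated fibroblast (CAF) areas of mouse liver metastases, as the targets of a whole transcriptome probe panel whose symbol starts with Mrpl or Mrps and a number. 78 of the 18855 targets had such a symbol, 49 named for the large subunit (Mrpl) and 29 for the small subunit (Mrps). MC38 cells, a mouse colon cancer line, were injected into the portal vein of C57BL6 mice 2 months of age, and the metastases grew from MC38 cells with CMTM6 shRNA (knockdown) or with nontargeting shRNA (control). CMTM6, a membrane protein that keeps PD-L1 at the cell surface, was thus targeted in the cancer cells, while the fibroblasts belonged to the host. Regions of interest (ROIs) were chosen on sections, the part of each ROI that stained for desmin was collected, and its probe tags were sequenced in 13 knockdown ROIs and 14 control ROIs. Each group had 3 mice, the labels do not say which ROI came from which mouse, and ROIs of a group therefore share animals. The p-values over ROIs given here are too small for that reason, and the intervals too narrow.

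Mitochondria keep ribosomes of their own, which translate the few proteins that the mitochondrial genome encodes, all of them subunits of the respiratory chain and of ATP synthase. The ribosomal RNAs of the mitoribosome come from the mitochondrial genome, but every one of its proteins is encoded in the nucleus, made in the cytosol and imported. Many of the proteins have a counterpart in bacterial ribosomes, and the others are found in mitochondria only. Symbols do not always give the place: the products of Mrps30 and Mrps18a sit in the large subunit, and that of Mrps36 works in the 2-oxoglutarate dehydrogenase complex and is no stable part of the mitoribosome. By place, 51 members were therefore of the large subunit (30 bacterial-type and 21 mitochondria-specific) and 26 of the small subunit (16 bacterial-type and 10 mitochondria-specific). The panel also measured 5 mitoribosome proteins with other names, Dap3, Ptcd3, Chchd1, Aurkaip1 and Gadd45gip1.

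The genes are spread over 17 chromosomes, with at most 11 on 1 chromosome (11). RefSeq promoter windows (GRCm38.p6, 300 bases that span a start site and lie mostly before it) were matched to 69 of the 78 members, in 75 windows. 3 short motifs known from promoters of nuclear genes for mitochondrial proteins were searched on both strands: CCGGAAG, the core bound by ETS factors such as GABP, then GCGCANGCG, bound by NRF1, and finally AAGATGGC, bound by YY1. The ETS letters were in 26 of the 75 windows (34.7%), against 8.86% of all 32851 promoter windows and 17.4% of those of targets above background. The NRF1 letters were in 16 windows (21.3%, against 6.25% and 13.1%) and the YY1 letters in 12 windows (16.0%, against 2.75% and 4.48%). At least 1 of the 3 motifs was in 44 windows (58.7%, against 16.0% and 30.6%). A match is a stretch of letters and no measured binding.

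The promoter windows of 5 members to which the results return are shown from 5′ to 3′ along the gene's own strand, with the matches in capitals. Mrps18a, Mrps18b and Mrps18c encode the 3 mammalian relatives of bacterial ribosomal protein S18, and their windows, on chromosomes 17 (46110754 to 46111053), 17 (35916391 to 35916690) and 5 (100798509 to 100798808), all held the ETS letters, joined by a YY1 match in Mrps18a and an NRF1 match in Mrps18b. Mrps9 (chromosome 1, 42850983 to 42851282) had the lowest fold change of the family and an NRF1 match. Mrps2 (chromosome 2, 28467816 to 28468115) had the highest fold change and none of the 3 motifs.
Mrps18a: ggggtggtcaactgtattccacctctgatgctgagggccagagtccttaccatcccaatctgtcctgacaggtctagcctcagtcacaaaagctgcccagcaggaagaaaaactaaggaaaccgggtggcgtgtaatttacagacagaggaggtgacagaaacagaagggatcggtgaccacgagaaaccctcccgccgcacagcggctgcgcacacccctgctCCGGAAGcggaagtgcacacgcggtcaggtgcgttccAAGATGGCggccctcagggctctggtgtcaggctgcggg
Mrps18b: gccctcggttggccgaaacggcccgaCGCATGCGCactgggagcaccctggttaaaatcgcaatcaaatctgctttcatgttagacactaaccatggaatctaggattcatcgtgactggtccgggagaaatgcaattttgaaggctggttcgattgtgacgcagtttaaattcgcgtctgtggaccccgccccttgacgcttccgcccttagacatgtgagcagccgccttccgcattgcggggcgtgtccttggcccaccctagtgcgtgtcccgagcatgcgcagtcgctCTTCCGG
Mrps18c: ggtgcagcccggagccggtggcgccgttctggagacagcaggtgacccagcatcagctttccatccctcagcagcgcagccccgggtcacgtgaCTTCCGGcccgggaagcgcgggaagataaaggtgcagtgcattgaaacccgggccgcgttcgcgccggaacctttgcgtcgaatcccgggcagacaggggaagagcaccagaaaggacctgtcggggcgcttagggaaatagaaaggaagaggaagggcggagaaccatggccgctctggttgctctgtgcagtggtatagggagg
Mrps9: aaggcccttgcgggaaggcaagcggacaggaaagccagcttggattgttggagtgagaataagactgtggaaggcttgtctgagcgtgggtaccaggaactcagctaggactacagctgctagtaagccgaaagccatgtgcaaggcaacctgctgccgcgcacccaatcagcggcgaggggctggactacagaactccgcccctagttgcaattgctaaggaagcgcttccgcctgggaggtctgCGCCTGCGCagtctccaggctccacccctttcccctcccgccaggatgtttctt
Mrps2: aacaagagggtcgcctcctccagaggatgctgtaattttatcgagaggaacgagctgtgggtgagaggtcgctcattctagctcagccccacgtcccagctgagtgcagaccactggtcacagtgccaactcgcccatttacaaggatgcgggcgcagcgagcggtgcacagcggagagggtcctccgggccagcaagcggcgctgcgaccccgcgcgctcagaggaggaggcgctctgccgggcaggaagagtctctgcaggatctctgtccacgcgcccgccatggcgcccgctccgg

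Mrpl46 and Mrps11 lie head to head on chromosome 7, and their windows overlap by 141 bases. They were the single pair of members with overlapping windows. Their values relative to the median target had r = 0.64 in the knockdown ROIs (0.24 without ROI 26) and r = 0.36 in the control ROIs, where pairs of members had medians of 0.40 and 0.40.

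The deposited values were normalised signals. In each ROI nearly all of them were whole multiples of what 1 read was worth, so reads could be recovered, 76346 to 2776820 per knockdown ROI and 659571 to 3269149 per control ROI. The knockdown ROI 26 stood apart as the shallowest: 1 read was worth 14.1 there (at most 2.22 in the other knockdown ROIs and 2.27 in the control ROIs), 9240 targets were at 1 read, and results that moved most with it are also given without it. The 75th percentile of the values was 43.9 to 56.4 in knockdown ROIs and 70.3 to 72.6 in control ROIs, so the scaling brought ROIs close together within a group and not across the groups. All 11 fibroblast markers, among them Col1a1, Dcn and Des, were above background, with sums of 10026 to 28168 in knockdown and 17559 to 39042 in control ROIs. Of other cells' markers, 2 of 8 tumour epithelium, 11 of 12 hepatocyte, 8 of 10 macrophage, 7 of 8 T and NK cell and 5 of 8 endothelial markers were above background. Cmtm6 averaged 60.3 ± 13.3 in knockdown and 86.4 ± 12.3 in control ROIs (SD, n = 13 and 14) and did not pass the test relative to the median target (log2 fold change 0.08 ± 0.10 SE, limma adjusted p = 0.81).

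All 78 members were above background, taken as the 95th percentile of 1103 targets of gene families that these tissues should not express, such as olfactory, vomeronasal and taste receptors (16.6 in signal). By mean signal over all ROIs they stood between the 57.8th and the 95.0th percentile of all targets, with a median at the 81.6th, and 59 of them were above the 75th. The order of members is an order of probe signals and not of transcripts, since probes differ. Mrpl52, of a mitochondria-specific large-subunit protein, had the strongest signal, with a lowest, median and highest value of 127, 144 and 282 in knockdown and 196, 234 and 276 in control ROIs. Mrpl33 and Mrpl18, both bacterial-type proteins of the large subunit, followed with medians of 128 and 124 in knockdown and 199.5 and 193 in control ROIs. The weakest were Mrpl47 (medians of 25.4 in knockdown and 39.2 in control ROIs), Mrpl46 (27.4 and 40.6) and Mrps27 (26.9 and 43.3), the last encoding a pentatricopeptide-repeat protein of the small subunit. The family drew 0.511% ± 0.021 of all recovered reads in knockdown ROIs (0.474 to 0.543%, n = 13) and 0.507% ± 0.022 in control ROIs (0.457 to 0.534%, n = 14), shares that overlapped nearly throughout. The median over members was 4 reads in ROI 26, the fewest of any ROI, and 40 to 191.5 reads in the control ROIs.

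As deposited, every one of the 78 members was lower in knockdown ROIs, and by about as much as the panel as a whole. Limma called all 78 lower at an adjusted p under 0.05, where it called 94.0% of all targets lower, and the median log2 fold change was −0.65 for the members and −0.66 for all targets. Members ranged only between −0.88 (Mrps9) and −0.37 (Mrps2). In 27 of the 78 members each knockdown ROI was below each control ROI, against 13.2% of all targets. All 78 members but only 11230 of the 18855 targets were above background, and the share over those 11230 was not counted. The mean over the members was 5.85 ± 0.06 on the log2 scale in knockdown ROIs (5.74 to 5.94) and 6.52 ± 0.06 in control ROIs (6.40 to 6.60), without overlap. Whether the authors' scaling or less RNA lowered nearly all targets cannot be told apart here, and in collected areas fewer cells and less RNA per cell cannot be told apart either.

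**Figure D1:**
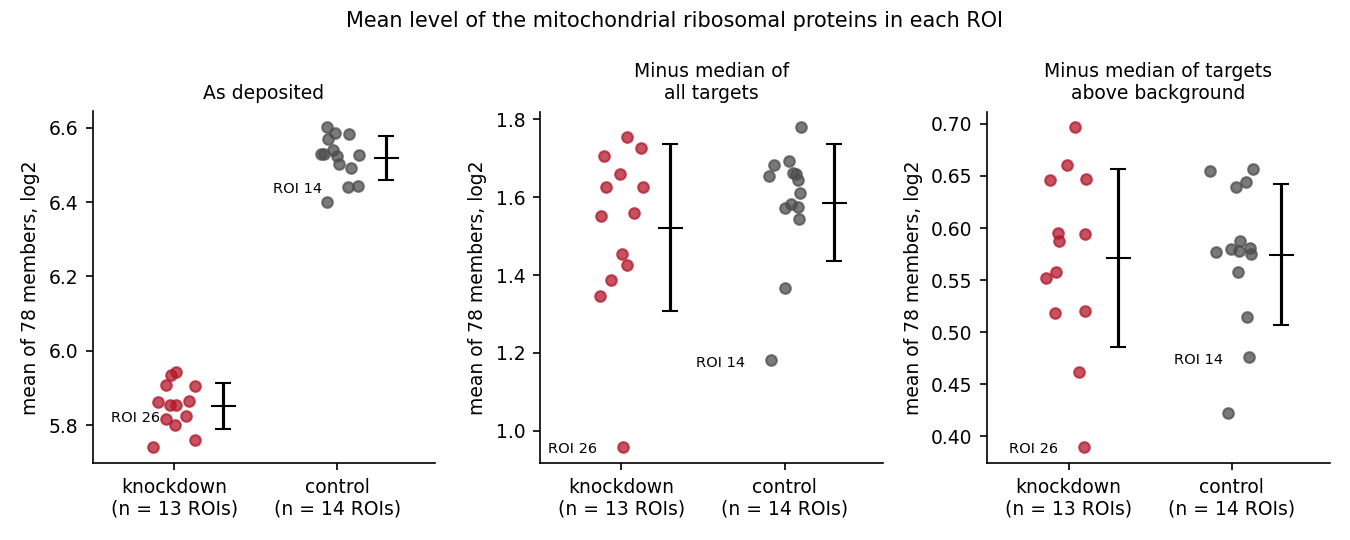
Mean log2(value + 1) of the 78 members in each ROI (points), as deposited, after subtracting the ROI's median over all targets, and after subtracting its median over the targets above background, with knockdown left of control and mean ± SD beside the points. The groups lie apart as deposited (5.74 to 5.94 in knockdown, 6.40 to 6.60 in control ROIs) and overlap on both other scales, where ROI 26 is the lowest.

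Relative to the median target of each ROI, the groups overlapped and no member passed the test. The mean over the members, that is log2(value + 1) minus the ROI's median over all targets, was 1.52 ± 0.21 in knockdown ROIs (0.96 to 1.75, n = 13) and 1.59 ± 0.15 in control ROIs (1.18 to 1.78, n = 14). The lowest knockdown value was that of ROI 26, and without it the knockdown mean was 1.57 ± 0.14. The lowest control value was that of ROI 14. Limma called no member lower and no member higher at an adjusted p under 0.05, where it called 0.00530% of all targets lower and 0.111% higher. At an unadjusted p under 0.05, 2 members were lower, where 6.73% of all targets were, and 0 were higher, where 3.16% of all targets were. The edgeR test on the recovered reads likewise called 0 members in either direction, against 0.0849% of all targets lower and 0.594% higher. At an unadjusted p under 0.05 edgeR had 0 members lower and 1 higher (Mrps2). The share of all targets was not counted there, so these counts are no result about the members.

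The fold changes were small and close to those of the panel. The median member had a log2 fold change of −0.05, as had the median target (−0.05), while the median target above background had −0.08. 52 of the 78 members (66.7%) were below 0, against 62.7% of all targets and 70.4% of targets above background. The SD of the fold changes over members was 0.11, about the median standard error of a single member (0.11), against an SD of 0.18 over all targets. The 95% intervals of all 78 members lay within a fold of 1.5 either way, that is within 0.58 on the log2 scale, the lowest bound being −0.57 (Mrps9) and the highest 0.47 (Mrps2).

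**Figure D2:**
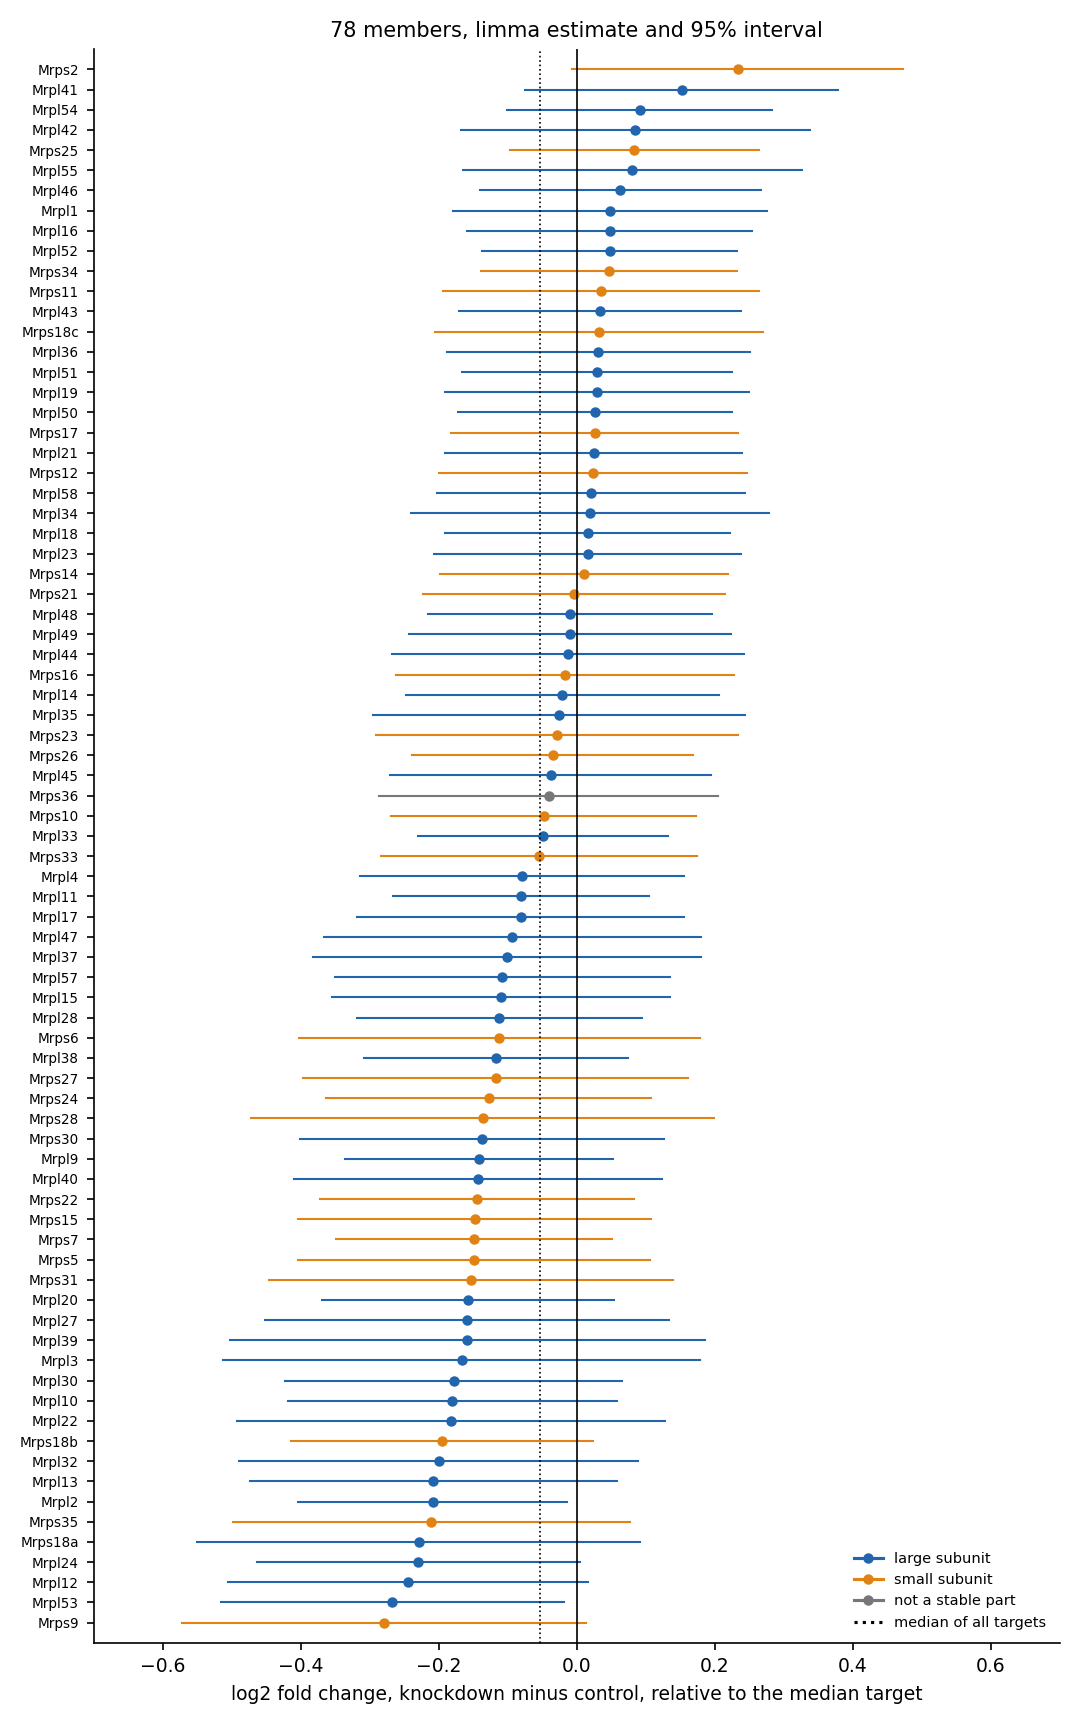
Log2 fold change (knockdown minus control, relative to the median target) of each of the 78 members with its 95% limma interval, ordered from the highest (Mrps2, 0.23) to the lowest (Mrps9, −0.28) and coloured by subunit. The dotted line is the median of all targets (−0.05), and the intervals of only Mrpl53 and Mrpl2 leave out 0.

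Subunits and classes had medians close to each other. The median log2 fold change was −0.08 for the 51 large-subunit members (33 below 0) and −0.05 for the 26 small-subunit members (18 below 0). By class it was −0.09 for bacterial-type and −0.01 for mitochondria-specific proteins of the large subunit, and −0.03 and −0.09 for those of the small subunit. The mean of the large-subunit members exceeded that of the small-subunit members by 0.06 ± 0.06 in knockdown ROIs (−0.05 to 0.19, the highest in ROI 26) and by 0.06 ± 0.03 in control ROIs (−0.03 to 0.11). Mrps36, the member outside the mitoribosome, had a log2 fold change of −0.04 ± 0.12 SE.

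At the low end, Mrps9, which encodes the counterpart of bacterial S9 in the small subunit, had a lowest, median and highest signal of 14.1, 27.4 and 35.8 in knockdown and 41.0, 48.9 and 70.0 in control ROIs. Relative to the median target these became −0.95, 0.59 and 0.96 in knockdown and 0.45, 0.70 and 1.23 in control ROIs, and the groups overlapped. The log2 fold change was −0.28 ± 0.14 SE (limma adjusted p = 0.52), and −0.16 ± 0.11 without ROI 26, in which Mrps9 had 1 read. Mrpl53, a mitochondria-specific large-subunit protein, ran from 0.57 over a median of 1.79 to 2.11 relative to the median target in knockdown ROIs, and from 1.61 over 1.99 to 2.23 in control ROIs. Its log2 fold change was −0.27 ± 0.12 (limma, unadjusted p = 0.033, adjusted p = 0.47), with a smaller size of −0.17 ± 0.09 once ROI 26, where it had 3 reads, was left out. Mrpl12, which makes the flexible stalk of the large subunit, had −0.24 ± 0.13 (−0.16 without ROI 26), and Mrpl24 had −0.23 ± 0.11 (−0.15 without it). Mrpl2, whose product lies near the peptidyl transferase centre, was the other member with an unadjusted p under 0.05 (log2 fold change −0.21 ± 0.09, limma p = 0.034, adjusted p = 0.47) and was singled out after its values were seen.

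At the high end stood Mrps2, which encodes the counterpart of bacterial S2 on the small subunit. Its signal was 46.7, 64.0 and 78.7 (lowest, median and highest) in knockdown and 57.5, 83.2 and 106 in control ROIs. Relative to the median target it was 1.18, 1.70 and 2.05 in knockdown and 0.84, 1.42 and 1.88 in control ROIs, so the groups overlapped over most of their range. The log2 fold change was 0.23 ± 0.12 SE (limma adjusted p = 0.51), and 0.27 ± 0.11 without ROI 26. It was the member that fell least as deposited. Mrpl41, Mrpl54, Mrpl42 and Mrps25, all of mitochondria-specific proteins, followed with log2 fold changes of 0.15 ± 0.11, 0.09 ± 0.09, 0.08 ± 0.12 and 0.08 ± 0.09 (limma adjusted p = 0.66 to 0.84). Without ROI 26, where Mrpl42 had its highest value, the fold change of Mrpl42 was 0.01 ± 0.10.

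The 3 S18 relatives occupy different places: the product of Mrps18c takes the position of the bacterial protein, that of Mrps18b sits elsewhere in the small subunit and that of Mrps18a in the large one. Mrps18a had 14.1, 41.3 and 51.4 (lowest, median and highest signal) in knockdown and 50.5, 69.3 and 82.1 in control ROIs. Its log2 fold change relative to the median target was −0.23 ± 0.16 SE, and −0.07 ± 0.09 without ROI 26, the library in which it had 1 read. Mrps18b had 50.3, 60.1 and 86.9 in knockdown and 90.4, 109 and 144 in control ROIs, with a log2 fold change of −0.19 ± 0.11 (−0.14 ± 0.09 without ROI 26). Mrps18c had 25.0, 48.7 and 71.2 in knockdown and 50.9, 67.2 and 79.2 in control ROIs, with a log2 fold change of 0.03 ± 0.12. None of the 3 passed the test (limma adjusted p = 0.56 to 0.95), and as deposited only Mrps18b had groups that did not overlap.

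Relative to the median target, the spread over the ROIs of a group was in most members larger than counting alone would give. Over the members, the median SD of the value relative to the median target was 0.31 in knockdown ROIs and 0.22 in control ROIs, where that of all targets above background was 0.36 and 0.27. Counting of the recovered reads alone would have given a median SD of 0.26 in knockdown and 0.16 in control ROIs for the members, and likewise more for all targets above background (0.33 and 0.19). Without ROI 26 the knockdown spread was 0.23, with 0.18 from counting, and so close to that of the control ROIs. The SD exceeded its counting part in 62 members in knockdown ROIs (63 without ROI 26) and in 70 members in control ROIs. It was larger in knockdown than in control ROIs for 58 members, and for 42 without ROI 26. Where the median of the targets above background was subtracted instead, the median SD in knockdown ROIs was 0.26, no more than counting gave (0.26). On that scale it was 0.20 without ROI 26 and 0.19 in control ROIs, against 0.18 and 0.16 from counting.

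**Figure D3:**
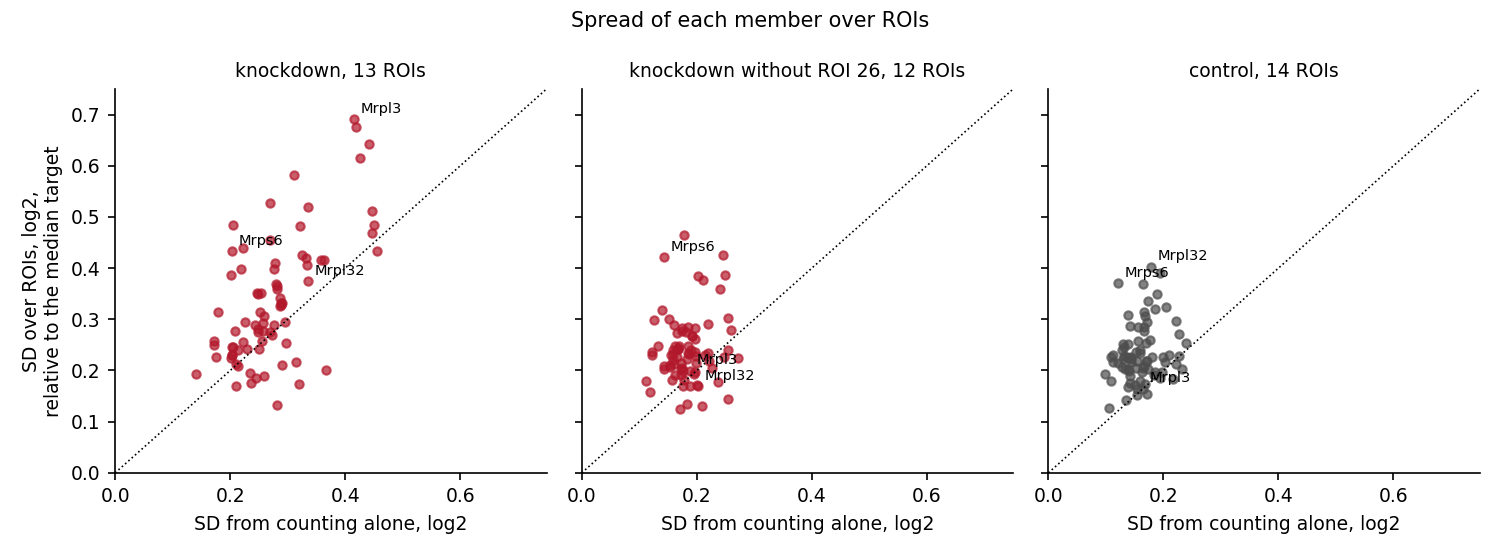
SD over ROIs of each member's log2 value relative to the median target (vertical) against the SD that counting of its reads alone would give (horizontal), in knockdown ROIs with and without ROI 26 and in control ROIs. The dotted line marks equality, and the medians are 0.31 against 0.26, 0.23 against 0.18 and 0.22 against 0.16. Mrps6 stands above the line in every panel.

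Among single members, the largest knockdown SDs were those of Mrpl3 (0.69), Mrpl39 (0.67) and Mrps28 (0.64), and they came down to 0.20, 0.24 and 0.43 without ROI 26. Mrpl14 (0.13), Mrps25 (0.17) and Mrpl19 (0.17) varied least in knockdown ROIs. In control ROIs Mrpl32 (0.40), Mrpl35 (0.39) and Mrps6 (0.37) varied most, and Mrpl33 (0.13), Mrpl38 (0.14) and Mrpl40 (0.15) least. Mrps6, the counterpart of bacterial S6, kept a wide spread in both groups, 0.43 in knockdown ROIs (0.42 without ROI 26, 0.14 from counting) and 0.37 in control ROIs (0.12 from counting). Its signal was 60.1, 92.5 and 167 (lowest, median and highest) in knockdown and 114, 150 and 239 in control ROIs. Relative to the median target it was lowest in ROI 25 (1.54) and highest in ROI 24 (3.18) among the knockdown ROIs, and lowest in ROI 14 (1.59) and highest in ROI 8 (2.99) among the control ROIs. Mrpl32, whose product is trimmed by the mitochondrial m-AAA protease before it joins the ribosome, was at 0.23 in control ROI 14 and between 0.99 and 1.80 in the other control ROIs.

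Members moved together over ROIs on this scale. The median Pearson r over the 3003 pairs of members was 0.40 in knockdown ROIs (n = 13) and 0.40 in control ROIs (n = 14), with 80.2% and 91.6% of pairs above 0. Pairs of targets above background had medians of 0.19 and 0.15. Without ROI 26 the knockdown median was 0.34 for members and 0.09 for all such targets, and without ROI 14 the control median for members was 0.23. Pairs within the large subunit (0.36 in knockdown, 0.38 in control ROIs), within the small subunit (0.42 and 0.40) and across the subunits (0.41 and 0.41) had like values with all ROIs. Without ROI 26 the knockdown values were 0.38 within the large subunit, 0.26 within the small subunit and 0.33 across them, and without ROI 14 the control values were 0.21, 0.24 and 0.24. Nuclear-encoded subunits of oxidative phosphorylation (0.57 and 0.66) and cytosolic ribosomal proteins (0.88 and 0.86), with median log2 signals of 7.38 and 10.34 against 6.21 of the members, had higher medians. The ROIs share animals, probes and depth, so these values describe the libraries and carry no test.

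Much of that covariation moved with the median that was subtracted. The mean of the members relative to the median target and that median itself had r = −0.96 in knockdown (rho −0.93) and r = −0.94 in control ROIs (rho −0.81). Without the 2 ROIs farthest from the median r was −0.95 and −0.77. These r are strongly negative by construction, since the median enters both values and varied more than the members' deposited mean. The SD of the median was 0.18 in knockdown and 0.11 in control ROIs, against 0.06 and 0.06 for that mean. With the mean of the background families on the same scale the members' mean had r = −0.84 in knockdown and −0.57 in control ROIs. With log2 total reads the members' mean had r = 0.71 in knockdown (0.15 without ROI 26) and r = 0.53 in control ROIs. Where the median of the targets above background was subtracted instead, the median r over pairs of members was 0.07 in knockdown (0.10 without ROI 26) and 0.11 in control ROIs, against 0.01 and 0.00 for pairs of targets above background. On that scale the members' mean was 0.57 ± 0.09 in knockdown and 0.57 ± 0.07 in control ROIs, and the median log2 fold change of the members was 0.01.

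**Figure D4:**
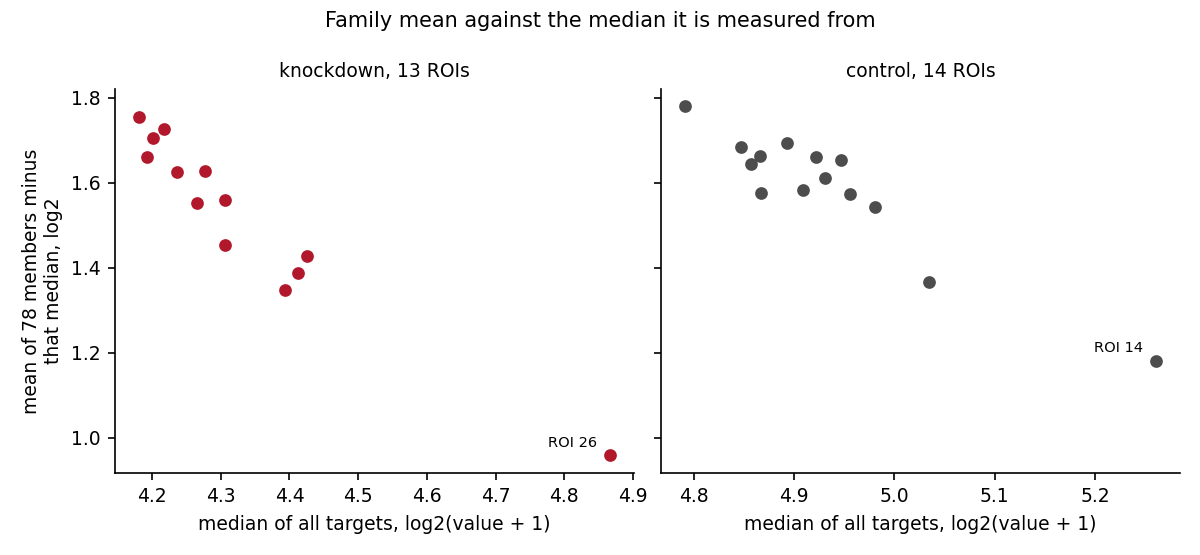
Mean of the 78 members minus the ROI's median over all targets (vertical, log2) against that median (horizontal, log2), for 13 knockdown ROIs and 14 control ROIs. The points fall along a line in both groups (r = −0.96 and −0.94), with ROI 26 and ROI 14 at its lower end. The median enters both axes, so a falling line is built in.

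**Figure D5:**
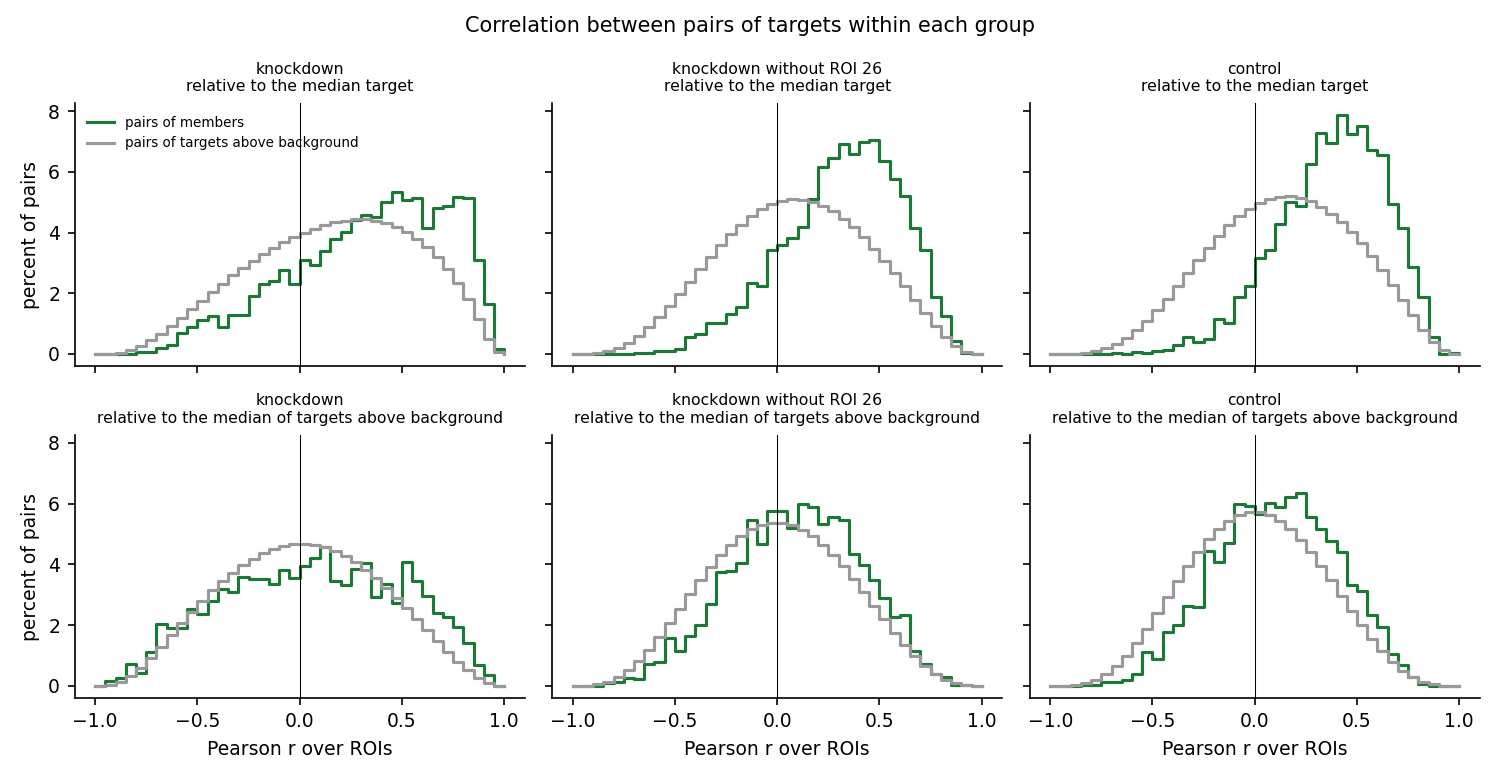
Percent of pairs by Pearson r over ROIs, for pairs of members (green) and pairs of targets above background (grey), in knockdown ROIs with and without ROI 26 and in control ROIs. The upper row is relative to the median target (member medians 0.40, 0.34 and 0.40) and the lower row relative to the median of targets above background (0.07, 0.10 and 0.11).

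Relative to the median target, single members followed the rest of the family to different degrees. With all ROIs, the members most like the rest of the family were Mrpl27 (r = 0.97 in knockdown and 0.86 in control ROIs with the mean of the other members), Mrpl32 (0.93 and 0.87) and Mrpl12 (0.88 and 0.91), all bacterial-type proteins of the large subunit. Without ROI 26 their knockdown values were 0.91, 0.83 and 0.72, and without ROI 14 their control values were 0.79, 0.67 and 0.81. The lowest by the mean of both groups were Mrpl1, of the L1 stalk (−0.41 and 0.17), Mrps25 (−0.39 and 0.47) and Mrpl34 (0.46 and −0.23), but the sign of the first 2 in knockdown ROIs rested on ROI 26. Without that ROI, the knockdown r was 0.47 for Mrpl1, 0.40 for Mrps25 and 0.19 for Mrpl34. Without ROI 14 the control r of Mrpl1 was −0.12. In 71 members r was above 0 in both groups, and in 75 without ROI 26, in 68 without ROI 14 and in 71 without both. Mrpl1 and Mrpl34 were among the members with few reads, a median of 47 and 48 in control ROIs. Outside the family, targets were picked from the 11230 above background by how closely their values followed the members' mean. Closest relative to the median target was Rpl27, of the cytosolic ribosome (r = 0.98 in knockdown, 0.97 in control ROIs). Then came Ipo5, a nuclear import receptor (0.96 and 0.96), and Nme2, a nucleoside diphosphate kinase (0.96 and 0.96). Srsf6, a splicing factor (0.97 and 0.96), and Nras, a small GTPase (0.98 and 0.95), followed. Both sides of these r share the subtracted median. Relative to the median of targets above background the closest were others, Dctpp1 (0.90 and 0.93), Scarb1 (0.91 and 0.90) and Lsm4 (0.89 and 0.90). Nudt21 (0.87 and 0.86) and Nasp (0.92 and 0.86) came next.

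Relative to the median of targets above background, the members' mean followed lists of genes of growth and of mitochondria to different degrees, and the order differed between the groups. On that scale it still had r = −0.83 with the median of all targets in knockdown (−0.75 without ROI 26) and −0.56 in control ROIs. With the background families r was −0.83 in knockdown (−0.69 without ROI 26) and −0.33 in control ROIs. With log2 total reads it was 0.63 (0.22 without ROI 26) and 0.50. The part of background and depth in the r with the lists was not tested. With the mean of the 5 mitoribosome proteins named otherwise the members' mean had r = 0.88 in knockdown and 0.80 in control ROIs, and with 22 genes of mitochondrial protein import r = 0.85 and 0.82. With 80 cytosolic ribosomal proteins r was 0.89 and 0.78, and 0.37 in control ROIs without the 2 farthest. With 75 nuclear-encoded subunits of oxidative phosphorylation r was 0.86 and 0.63, and the control value was 0.03 without the 2 farthest ROIs. With 10 proliferation genes r was 0.86 and 0.70, and 0.24 in control ROIs without the 2 farthest. Without ROI 26 the knockdown r of these 5 lists was 0.81, 0.78, 0.90, 0.94 and 0.78. Other mitochondrial lists followed less closely in knockdown ROIs. With 25 assembly factors r was 0.67 in knockdown (0.54 without ROI 26) and 0.05 in control ROIs. It was 0.70 (0.37 without ROI 26) and 0.27 with 14 translation factors, and 0.54 (0.05 without ROI 26) and −0.10 with 8 nuclear regulators. With 17 aminoacyl-tRNA synthetases it was 0.72 (0.42 without ROI 26) and 0.58, and with 12 genes of mitochondrial genome upkeep and transcription 0.56 (0.54 without ROI 26) and 0.64. In control ROIs these last 2 lists were about as close as oxidative phosphorylation, and without ROI 14 the values were 0.73, 0.72 and 0.52. Without the 2 farthest control ROIs they were 0.19, 0.32 and 0.03. The lists that followed less closely had weaker signals (median log2 5.12 to 5.28, and 6.31 for the nuclear regulators) than the first 5 (6.43 to 10.34). The part of counting in these differences was not tested. With the mean of the 11 fibroblast markers the members' mean had r = −0.06 in knockdown (0.03 without ROI 26) and −0.69 in control ROIs (−0.44 without the 2 farthest). With that of 8 tumour epithelium markers it had −0.56 and −0.72 (−0.09 in control without the 2 farthest). Only 2 of those 8 were above background, so their mean was largely one of background signals. With macrophage markers r was −0.53 in knockdown and −0.18 in control ROIs. It was −0.30 and −0.49 with T and NK cell markers, and −0.23 and −0.61 with endothelial markers. The part of these cell types in the members' values was not tested.

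The other lists of the mitochondrial translation system had no call either. The 5 mitoribosome proteins named otherwise all had log2 fold changes below 0 relative to the median target, from −0.21 ± 0.13 for Ptcd3 over −0.16 ± 0.12 for Dap3, −0.10 ± 0.11 for Aurkaip1 and −0.08 ± 0.09 for Chchd1 to −0.08 ± 0.13 for Gadd45gip1 (limma adjusted p = 0.60 to 0.86). Of all targets 62.7% were below 0, and of targets above background 70.4%. Their median was −0.01 in edgeR, where Chchd1 (0.005) and Gadd45gip1 (0.03) were above 0. Relative to the median of targets above background it was −0.04. Among 25 assembly factors, 14 translation factors, 17 aminoacyl-tRNA synthetases and 12 genes of mitochondrial genome upkeep and transcription, 0 passed at a limma adjusted p under 0.05. Their medians were −0.13, −0.19, −0.13 and −0.19. At an unadjusted p under 0.05, 1, 2, 1 and 3 of them were lower and 0 were higher, where 6.73% of all targets were lower and 3.16% higher. The edgeR test called 0 in each list, against 0.0849% of all targets lower and 0.594% higher.

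Named by the smallest p in each list, Trub2, a pseudouridine synthase of mitochondrial RNA, had a log2 fold change of −0.33 ± 0.14, Lrpprc, which stabilises mitochondrial mRNAs, −0.33 ± 0.15, Tufm, the elongation factor Tu, −0.37 ± 0.18, and Nars2, the asparaginyl-tRNA synthetase, −0.34 ± 0.15 (limma adjusted p = 0.42 to 0.50). Primpol, a primase-polymerase, had −0.35 ± 0.12, Twnk, the replicative helicase, −0.36 ± 0.14 and Tfam, which packages mitochondrial DNA, −0.31 ± 0.15 (limma adjusted p = 0.35 to 0.49). These genes had mean signals of 10.4 to 58.1 in knockdown and 20.4 to 109 in control ROIs. Twnk, at the low end of both ranges, was not above background. The 75 subunits of oxidative phosphorylation had a median of −0.02, close to that of the members, with 0 calls by limma and 0 by edgeR. At an unadjusted p under 0.05, 0 of these subunits were lower and 1 was higher, where 6.73% and 3.16% of all targets were. Ndufa3 of complex I stood at 0.21 ± 0.10 (limma adjusted p = 0.49). Import genes had a median of −0.10 with 0 calls (2 lower and 0 higher at an unadjusted p under 0.05, 0 by edgeR), Hspa9, the chaperone that pulls proteins into the matrix, at −0.31 ± 0.12 and Tomm6 at −0.24 ± 0.10 (limma adjusted p = 0.41 and 0.42). Of 8 nuclear regulators of mitochondrial genes, 0 passed (2 lower and 0 higher at an unadjusted p under 0.05, 0 by edgeR), Ppargc1b, a coactivator, being at −0.47 ± 0.18 and Myc at −0.33 ± 0.13 (limma adjusted p = 0.39 and 0.41). Ppargc1b was not above background, with mean signals of 7.93 in knockdown and 17.3 in control ROIs. The 80 cytosolic ribosomal proteins had a median of −0.15, with 78 below 0 (97.5%, against 62.7% of all targets and 70.4% of targets above background). At an unadjusted p under 0.05, 17 were lower, where 6.73% of all targets and 1038 of the 11230 above background were. Of the 80 proteins, 0 passed at an adjusted p under 0.05 (0 by edgeR). Their median was −0.07 in edgeR and −0.09 relative to the median of targets above background.

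A few markers of other cell types passed the test. 3 of 12 hepatocyte markers and 1 of 8 T and NK cell markers were higher in knockdown ROIs at a limma adjusted p under 0.05 relative to the median target (0.111% of all targets were), with list medians of 1.02 and 0.36 on the log2 scale. In edgeR these counts were 9 and 2 (0.594% of all targets). 0 of 10 macrophage markers passed (median 0.31). Of these, 6 were higher at an unadjusted p under 0.05 (3.16% of all targets were) and 1 was higher in edgeR (0.594%). Of 11 hypoxia genes, all below 0 with a median of −0.47, 0 passed. Among them 9 were lower at an unadjusted p under 0.05 (6.73% of all targets were) and 4 were lower in edgeR (0.0849%). The summed hepatocyte signal was 127 to 1062 in knockdown and 205 to 725 in control ROIs. Within groups the members' mean, relative to the median of targets above background, had r = 0.11 with the hepatocyte markers in knockdown (−0.24 without the 2 farthest ROIs) and −0.45 in control ROIs (−0.10 without them). The part of hepatocytes in the members' values was not tested. By promoter motif, and with no test of the difference, the median log2 fold change was −0.03 with the ETS letters and −0.08 without them, −0.15 with the NRF1 letters and −0.02 without them, and −0.06 with the YY1 letters and −0.05 without them.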

How the data were processed

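A GeoMx Digital Spatial Profiler instrument measured CAF segments of 27 ROIs with a mouse whole transcriptome panel. The authors analysed the probe tags in the GeoMx software and deposited 1 sheet of signal values for 18855 targets. How the values were normalised, and with which software version, is not given in the sources used here. Reads were recovered from the steps between values (whole within 0.001 reads), and 3 targets, none of them a member, were not whole in at least 1 ROI. Duplicates are not reported, so a read may not be a molecule.

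Log2(value + 1) was used as deposited and minus the median over all targets of the same ROI. Groups were compared with limma 3.58.1 (trend, two-sided) on all targets, with Benjamini-Hochberg adjustment over all of them and a threshold of 0.05, and the recovered reads with edgeR 4.0.16 (quasi-likelihood) and DESeq2 1.42.0 as alternatives. A target was above background where its mean log2 value exceeded the 95th percentile of the background families (4.14). Counting SDs assume Poisson reads. Correlations are descriptions. The scripts were tested on simulated data. Pseudocounts of 0.1 and 5, other centrings, a filter, background subtraction, a Student test, array weights and leaving out each ROI were tried.

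Named were, among the members, the 5 highest and 5 lowest fold changes, the 3 highest and 3 lowest levels, the 3 largest and 3 smallest SDs per group, the 3 most and 3 least correlated with the rest and the S18 relatives. Outside the family, these were the 5 mitoribosome proteins named otherwise, up to 3 targets of smallest p per mitochondrial list and Cmtm6. The 5 targets most like the members' mean on each scale were named too. The members and lists were chosen with earlier results of these data known. Sequences are from RefSeq (GRCm38.p6). The MC38 segments and protein sequences were not analysed here.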

Additional observations from a re-analysis of the deposited data

How the results depend on the processing

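Under all 38 alternatives to the comparison relative to the median target, 0 members were called in either direction, and all 31 alternatives to the comparison as deposited called all 78 lower. The median log2 fold change of the members relative to the median target (−0.05) was −0.04 with a pseudocount of 0.1, −0.10 with 5, 0.01 when centred on targets above background, −0.01 when centred on the 75th percentile, −0.01 without ROI 26, 0.02 in edgeR and 0.02 in DESeq2, and −0.09 to −0.04 when each other ROI was left out. The number of members below 0 (52) was 34 in edgeR, 32 in edgeR without ROI 26 (a fit chosen after seeing the data) and 34 in DESeq2. The median of all targets was itself 0.002 in edgeR, against −0.05 in limma. The shares of all targets below 0 in these fits were not counted. At an unadjusted p under 0.05, 12 members were lower with a pseudocount of 5, 5 with array weights and 7 without control ROI 14, against 2. The shares of all targets lower under these settings were not counted, so these counts are no result about the members. Mrpl42 turned to −0.029 with array weights. Mrps18c turned to −0.011 with a pseudocount of 5, −0.0029 without control ROI 7 and −0.027 without knockdown ROI 22, and ran from −0.027 to 0.086 when single ROIs were left out. The median SD of members in knockdown ROIs was 0.26 when centred on targets above background, 0.23 without ROI 26 and 0.30 to 0.32 without each other ROI. In control ROIs it was 0.19 when centred on targets above background and 0.19 to 0.23 without single ROIs. The median r of members in knockdown ROIs was 0.070 when centred on targets above background (0.10 without ROI 26 as well, chosen after seeing the data), 0.33 as Spearman's rho and 0.39 to 0.41 without each ROI other than 26. In control ROIs it was 0.11 when centred on targets above background and 0.23 to 0.44 without single ROIs, the lowest without ROI 14. The causes of these shifts were not tested. Leaving out ROI 26 or ROI 14 in the correlations of members with each other and with other lists was chosen after seeing the data. No paired analysis was possible because the groups share no replicate number.

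Intervals and counting SDs cover counting and the spread over ROIs, not over mice. In ROI 26 8 members were at 1 read, and 42 members had their lowest knockdown value relative to the median target there.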
